A study of Homo sapiens with 4 samples.

Results

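Haem, iron, globin and red cell genes were followed in nascent RNA of K562 cells carrying the K700E substitution of the splicing factor SF3B1 and of cells with wild-type SF3B1 (WT). The set holds 39 genes chosen by name for their roles, of 17753 genes with at least 1 placed read over an intron. HBA1 with HBA2 and HBG1 with HBG2 encode near-identical chains and were read together, which leaves 37 units, and 35 of them had reads. Of these, 20 units reached at least 10 reads over their introns in every sample and were tested, and 15 were too shallow to test. No reads were listed for HMOX1 or EPOR in the rows used here. The members held 583 of 209592 distinct introns with a read.

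K562 is an established human myeloid leukaemia line that makes embryonic and fetal globins. There were 2 K700E samples and 2 WT samples. According to the labels, modified alleles were induced with doxycycline at 1 µg/ml and all 4 samples were harvested after 4 days. The labels do not say how the lines were built, whether each is 1 clone or whether replicates are separate cultures. The p-values therefore measure only the spread between these samples, which the tests share across introns or genes. RNA was taken from chromatin, freed of polyadenylated and ribosomal RNA, and read as long PacBio reads, so each read shows which introns had been removed while the transcript was still on chromatin. The labels describe the cells as epithelial. Of 16 erythroid and megakaryocytic markers 14 had reads, and KLF1 and EPOR were at 0. Their overlaps summed to 894 and 2314 in K700E samples and 3598 and 5382 in WT samples. TFRC, itself a member of the set, supplied most of these, with 730 and 1716 in K700E samples and 2816 and 3571 in WT samples. Of 12 epithelial markers 8 had reads, with 56 and 51 overlaps in K700E samples and 29 and 49 in WT samples, and KRT5, KRT7, GRHL2 and CLDN4 were at 0. Lymphoid markers summed to 36 and 26 overlaps in K700E samples and 0 and 66 in WT samples, and monocytic ones to 0 and 1 in K700E samples and 0 and 25 in WT samples.

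Red cells take up iron bound to transferrin through the transferrin receptor, pass it into mitochondria and insert it into a porphyrin ring to make haem. Haem then joins globin chains to form haemoglobin. Spare iron is held in ferritin, and the iron regulatory proteins adjust ferritin and receptor output to the iron supply. SF3B1 is part of the U2 small nuclear ribonucleoprotein, which binds the branch point region of introns. Mutations of SF3B1 are typical of myelodysplastic syndromes with ring sideroblasts, in which iron collects in the mitochondria of red cell precursors.

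A read-intron overlap is 1 read counted over 1 annotated intron, and splicing efficiency is the share of those overlaps that carry the intron's junction. The samples held 459726 and 909679 overlaps for K700E and 1346809 and 1185049 for WT, so K700E replicate 1 was the shallowest. The members held 1988 and 5097 overlaps in K700E samples and 8641 and 10509 in WT samples. TFRC alone supplied 36.7% and 33.7% of the members' overlaps in K700E samples and 32.6% and 34.0% in WT samples. The minimum of 10 reads in every sample was met by 37 member introns, from 5 units, which were TFRC, EPB41, FTL, SLC11A2 and HBG1/HBG2.

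The exon junctions on which the intron results rest are shown as the last 15 bases of the upstream exon and the first 15 of the downstream exon, from GENCODE 29 transcripts. The 3 capitals on each side flank the point from which the intron is removed. TFRC introns 2 and 3 are the early introns of that gene, introns 10 to 15 are those with the smallest p-values, and the 3 introns of FTL and intron 8 of EPB41 serve as the deeply read introns of other members.
TFRC intron 2: gcattctctaacTTGTTTggtggagaacca
TFRC intron 3: tctttttcttgaTTGGATttatgattggct
TFRC intron 10: gctttgtagaacCAGATCactatgttgtag
TFRC intron 11: atatggtcttaaAAGATGggtttcagccca
TFRC intron 12: actgaatggctaGAGGGAtacctttcgtcc
TFRC intron 13: ataaagcggttcTTGGTAccagcaacttca
TFRC intron 14: aaaacaatgcaaAATGTGaagcatccggtt
TFRC intron 15: ctgggccagcaaAGTTGAgaaactcacttt
FTL intron 1: acctacctctctCTGGGCttctatttcgac
FTL intron 2: ttccaggacatcAAGAAGccagctgaagat
FTL intron 3: cgcacggaccccCATCTCtgtgacttcctg
EPB41 intron 8: cttcataaagcaAAGGACttggaaggagta

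Of 34 member introns tested, 25 (73.5%) had a lower and 9 a higher mean efficiency in K700E than in WT samples, where 61.6% of all tested introns had a lower one. TFRC held most of the 34, and none passed the test. In edgeR's quasi-likelihood test 0 of the 34 passed at a false discovery rate of 0.05, whereas 0.0982% of the 5094 introns tested over all genes did. Before adjustment 6 had a p under 0.05, all of them in TFRC. DESeq2 and limma also called 0 of the 34, and each called 0 of all 5094 introns. Both K700E samples lay below both WT samples for 15 member introns and above both for 1, where 19.9% of all tested introns lay below and 9.19% above. The median difference, K700E minus WT, was −5.00 percentage points over the member introns and −1.67 points over all introns tested. Without TFRC, 13 member introns remained, 8 lower (61.5%, close to the share over all introns) and 5 higher, with a median of −2.88 points. Of these 13, only 3 had both K700E samples below both WT samples, and 1 had both above. Without the shallow K700E replicate 1, 21 of the 34 were lower by log2 odds, against 25 with it. The share of all introns that were lower fell as well, from 62.9% to 53.2%. The members were picked with earlier results known, overlapping introns share reads, and 1 read covers many introns of a gene, so the 34 values are not independent.

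TFRC, the receptor through which red cell precursors take up transferrin-bound iron, lies on the minus strand of chromosome 3 (GRCh38), and its main transcript has 18 introns. Intron 1 lies in the untranslated leader, and the other 17 fall within the coding region. The first 3 introns were spliced alike. Intron 1 was spliced in 96.9% and 93.9% of reads in K700E samples, against 93.0% and 96.8% in WT samples. Intron 2 was spliced in 94.9% and 93.8% in K700E samples, against 88.7% and 94.1% in WT samples. Intron 3 was spliced in 88.9% and 89.5% in K700E samples, against 89.9% and 87.4% in WT samples. The groups overlapped for each of these 3 introns.

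Of the TFRC introns after the third, all but introns 5, 6 and 18 had both K700E values below both WT values. Intron 12, of 208 nt (chr3:196062646-196062853), was spliced in 19 of 37 and 25 of 56 reads in K700E samples, and in 134 of 171 and 122 of 154 reads in WT samples. That is 51.4% and 44.6% in K700E samples, against 78.4% and 79.2% in WT samples. The 95% Wilson intervals ran from 35.9% to 66.6% and from 32.4% to 57.6% in K700E samples, and from 71.6% to 83.9% and from 72.1% to 84.9% in WT samples, so the intervals of the K700E samples did not meet those of the WT samples. The means were 48.0% ± 4.74 for K700E and 78.8% ± 0.607 for WT (SD, n = 2 each), and the fitted log2 odds ratio was −2.04 ± 0.64 (SE). Its adjusted p was 0.655 with edgeR's quasi-likelihood test over all introns, from an unadjusted p of 0.00154, and intron 12 was the member intron with the smallest p.

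Intron 15, also 208 nt long (chr3:196058366-196058573), was the other intron of that length. It was spliced in 67.6% and 62.0% of reads in K700E samples, against 88.9% and 84.7% in WT samples, and the groups did not overlap. These 2 introns are the shortest of TFRC, and intron 12 was the least spliced intron of the gene in all 4 samples. Intron 11, of 1369 nt (chr3:196062940-196064308), was spliced in 73.1% and 77.8% of reads in K700E samples, against 95.7% and 93.7% in WT samples. Intron 14 reached 74.1% and 82.1% in K700E samples, against 96.8% and 93.1% in WT samples. Intron 13 reached 75.9% and 88.6% in K700E samples, against 97.4% and 95.0% in WT samples. All 3 lay lower in both K700E samples. Intron 10 was spliced in 46 of 49 and 81 of 86 reads in K700E samples, and stood at 202 of 202 and 181 of 181 in WT samples. In at least 1 WT sample its junction count exceeded the covering reads and was set to their number. Its 100% in WT samples thus rests in part on that cap, and it was not tested where ratios above 1 were left out. Introns 10, 11, 13, 14 and 15 had unadjusted p-values between 0.0119 and 0.0458 and an adjusted p of 0.985 each in edgeR.

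Introns 8, 9 and 17 of TFRC also lay lower in both K700E samples, with mean differences of −10.3, −8.39 and −10.2 points. Intron 8, which drew the most reads of any TFRC intron, was spliced in 82.2% and 83.3% of reads in K700E samples, against 95.6% and 90.5% in WT samples. Intron 9 was spliced in 89.2% and 90.1% in K700E samples, against 99.5% and 96.6% in WT samples. Intron 17 was spliced in 89.3% and 84.0% in K700E samples, against 98.0% and 95.6% in WT samples. Introns 4 and 7 also lay lower in both K700E samples, with mean differences of −5.10 and −4.64 points. Intron 18 did not separate the groups, at 86.7% and 95.8% in K700E samples, against 98.8% and 95.5% in WT samples. Introns 5 and 6 were low in K700E replicate 1 alone, at 73.1% and 71.4%, where K700E replicate 2 had 92.9% and 92.3%. Intron 16 had only 9 reads in K700E replicate 1 and was not tested.

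Counted over the 17 TFRC introns that met the read minimum, 14 had a lower mean in K700E samples and 11 lay lower in both. Of all tested introns, 61.6% had a lower mean and 19.9% lay lower in both. Single reads cover many TFRC introns, so these counts are not independent. Divided between introns 6 and 7, a point chosen after the values were seen and so given without a test, introns 1 to 6 were spliced in 87.0% and 92.4% of overlaps in K700E samples, against 93.4% and 92.2% in WT samples. Introns 7 to 18 were spliced in 79.6% and 82.0% in K700E samples, against 95.3% and 92.7% in WT samples. The groups thus overlapped over the early introns and not over the later ones. Read cover along the gene moved as well. Over introns 1 to 6 a mean of 30.8 and 104.8 reads covered each intron in K700E samples, against 83.3 and 170.2 in WT samples. Over introns 7 to 18 the means were 31.8 and 51.0 reads in K700E samples, against 159.8 and 145.3 in WT samples. The ratio of late to early cover thus differed between replicates of each genotype, and its part in the efficiency values was not tested.

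**Figure D1:**
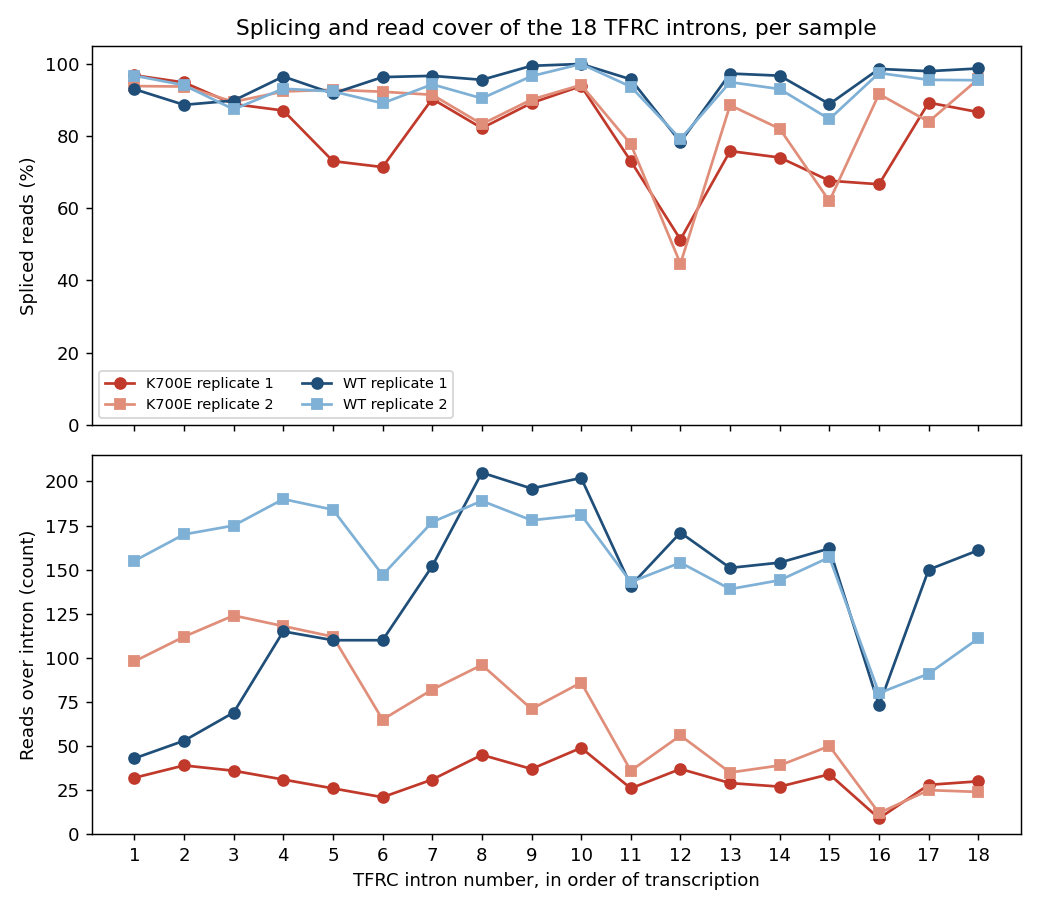
Share of spliced reads (upper panel, percent) and reads over the intron (lower panel, counts) for the 18 introns of TFRC in order of transcription, with 1 line per sample, K700E in reds and WT in blues. Introns 1 to 3 overlap between genotypes, and at intron 12 the K700E samples stand at 51.4% and 44.6%, against 78.4% and 79.2% in WT samples.

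Summed over all its annotated introns, TFRC was spliced in 63.7% and 63.3% of overlaps in K700E samples, against 81.6% and 71.9% in WT samples. These sums hold annotated introns that compete with the used ones, among them a 3006 nt intron that skips the 196 nt exon between introns 3 and 4 and that no read in any sample used, over 26 and 90 reads in K700E samples and 63 and 160 in WT samples. Over the most used of overlapping introns the shares were 82.0% and 87.3% in K700E samples, against 94.9% and 92.5% in WT samples. Both sums lay lower in both K700E samples. The gene's unadjusted p was 0.0435 and its adjusted p was 0.99975 in edgeR's quasi-likelihood test on the sums over all introns.

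Summed per gene over all annotated introns, the units divided almost evenly. Of 20 tested units 11 had a lower and 9 a higher mean efficiency in K700E samples, and the median difference was −0.633 points, against −2.55 points over all 5080 genes tested, of which 62.4% had a lower mean. By log2 odds the split stayed at 11 lower and 9 higher with DESeq2, limma, dispersion 0, a minimum of 5 reads or a replicate block. It also held with either K700E sample left out, and was 10 to 10 without WT replicate 1. Over the most used introns, 10 of the 14 units that could be tested were lower, beside 62.4% of all genes. Their median was −0.79 against −0.32 over all genes. At a minimum of 20 reads 10 of 15 were lower, beside 65.1% of all genes, with a median of −0.43 against −0.21. Without WT replicate 2 it was 15 of 20, beside 71.1% of all genes, with a median of −0.22 against −0.44. In edgeR's quasi-likelihood test 0 units passed, 1 had an unadjusted p under 0.05, and 0% of all genes passed, with 170 genes at an unadjusted p under 0.05. DESeq2 and limma called 0 of the 20 units, and over all genes they called 1 and 0. Both K700E samples lay below both WT samples for 6 units and above both for 2, where 21.1% of all genes lay below and 10.3% above. With the 10 read minimum, 20 of 37 units could be tested, so nothing is said of the rest beyond their counts.

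**Figure D2:**
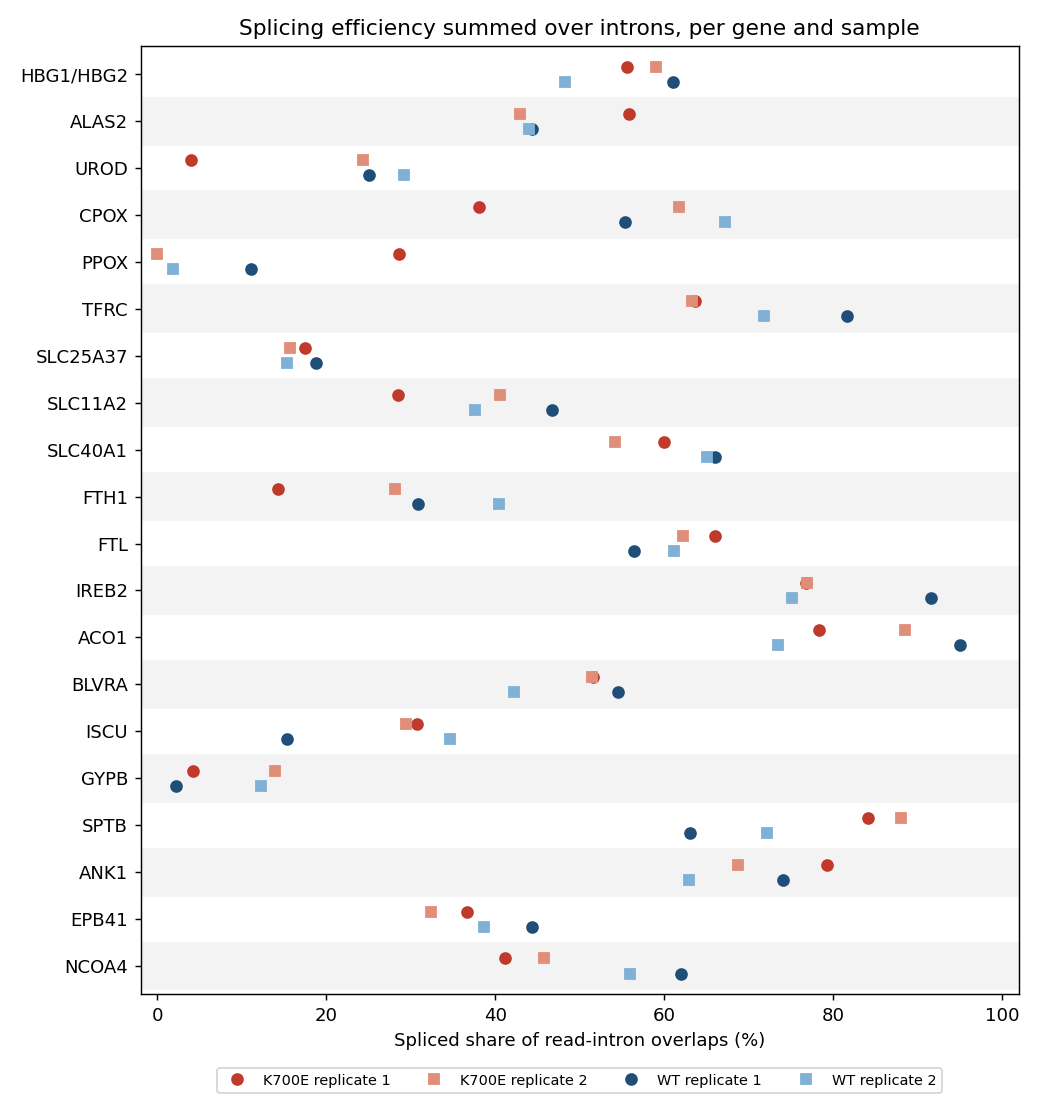
Splicing efficiency of the 20 tested units, as the share of read-intron overlaps with the junction in percent, with 1 point per sample, K700E in the upper and WT in the lower row of each unit. TFRC, NCOA4, EPB41, FTH1, UROD and SLC40A1 have both K700E samples below both WT samples, and SPTB and FTL have both above.

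Of the other iron uptake and transport genes, SLC11A2, SLC25A37 and SLC40A1 were tested. Summed over all annotated introns, these and TFRC, all 4, had a lower mean efficiency in K700E samples, SLC25A37 by only 0.45 points. SLC11A2, which encodes the transporter that moves ferrous iron out of endosomes, was spliced in 28.5% and 40.5% of overlaps in K700E samples, against 46.7% and 37.6% in WT samples. Its intron 2, of 2070 nt (chr12:51008625-51010694), was spliced in 8 of 13 and 10 of 10 reads in K700E samples, and in 16 of 18 and 35 of 37 in WT samples. The groups overlapped for both measures. Over its most used introns SLC11A2 reached 66.7% and 86.1% in K700E samples, against 92.3% and 89.5% in WT samples, lower in both K700E samples. The SLC11A2 intron with most reads, a 143 nt annotated intron on chromosome 12, had no junction in any of 8 and 14 reads in K700E samples and 33 and 44 in WT samples.

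SLC40A1, which encodes the iron exporter ferroportin, was spliced in 60.0% and 54.2% of overlaps in K700E samples, against 66.1% and 65.1% in WT samples, and both K700E samples were lower. Over its most used introns the groups overlapped, at 83.3% and 64.1% in K700E samples, against 77.1% and 85.3% in WT samples. Its most read intron, intron 1, was spliced in 2 of 4 and 6 of 8 reads in K700E samples, and in 2 of 10 and 20 of 26 in WT samples. SLC25A37, the mitochondrial iron importer mitoferrin, was spliced in 17.5% and 15.7% in K700E samples, against 18.8% and 15.4% in WT samples. Over its most used introns, 7 of 8 and 13 of 16 overlaps were spliced in K700E samples, and 36 of 39 and 16 of 22 in WT samples. By that measure its mean was higher in K700E samples, at 84.4% against 82.5%. Its values overlapped, and its most read annotated intron, of 1248 nt, had no junction in any of 6 and 14 reads in K700E samples and 29 and 17 in WT samples. TFR2, a second transferrin receptor, had 66 and 0 overlaps in K700E samples and 2 and 56 in WT samples. SLC25A38, a mitochondrial glycine carrier needed for haem synthesis, had 3 and 13 in K700E samples and 7 and 43 in WT samples. STEAP3, which reduces iron in the endosome, had 5 and 0 in K700E samples and 0 and 12 in WT samples, and SLC25A28, a second mitoferrin, had 0 and 1 in K700E samples and 0 and 2 in WT samples. None of these 4 reached the minimum for a test.

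Among the genes of iron storage and sensing, 4 of 5 had a lower mean gene efficiency in K700E samples and FTL had a higher one. FTL, the ferritin light chain, has 3 short introns in its main transcript, on the plus strand of chromosome 19. Intron 1, of 160 nt (chr19:48965610-48965769), was spliced in 34 of 51 and 119 of 193 reads in K700E samples, and in 107 of 179 and 133 of 232 in WT samples. That is 66.7% and 61.7% in K700E samples, against 59.8% and 57.3% in WT samples, so both K700E samples were higher. Intron 2, of 364 nt, was spliced in 69.7% and 58.4% of reads in K700E samples, against 45.2% and 62.0% in WT samples. Intron 3, of 176 nt, was spliced in 59.1% and 72.6% of reads in K700E samples, against 71.7% and 69.8% in WT samples. Introns 2 and 3 overlapped between genotypes. Summed, FTL reached 66.0% and 62.2% in K700E samples, against 56.5% and 61.1% in WT samples, a mean of 64.1% ± 2.68 for K700E and 58.8% ± 3.30 for WT (SD, n = 2 each). Its adjusted p was 0.99975 in edgeR.

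FTH1, the ferritin heavy chain, was spliced in 14.3% and 28.1% of overlaps in K700E samples, against 30.9% and 40.5% in WT samples. Both K700E samples were lower, with 35 and 96 overlaps in K700E samples and 81 and 79 in WT samples. Of its 12 introns with a read, 6 overlap exons of BEST1, and reads of the 2 genes cannot be told apart if strand was not used in counting. Over the most used introns the groups overlapped, at 25.0% and 43.1% in K700E samples, against 40.0% and 58.5% in WT samples. Its most read intron, of 95 nt, was spliced in 1 of 4 and 6 of 21 reads in K700E samples, and in 5 of 19 and 8 of 15 in WT samples.

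NCOA4, the receptor that delivers ferritin for breakdown and so releases its iron, had 7 junctions in 17 overlaps and 92 in 201 in K700E samples, and 548 in 883 and 274 in 490 in WT samples. Efficiency was 41.2% and 45.8% in K700E samples, against 62.1% and 55.9% in WT samples. Over the most used introns it was 55.6% and 64.4% in K700E samples, against 83.3% and 81.1% in WT samples. The 55.6% of K700E replicate 1 rests on 5 of 9 overlaps, below the minimum of 10, so the most used introns were not tested. Both measures were lower in both K700E samples, and the gene's unadjusted p was 0.0817 and its adjusted p 0.99975 in edgeR. Intron 4, its most read intron (chr10:46014553-46014853, 301 nt), was spliced in 1 of 1 and 14 of 21 reads in K700E samples, and in 65 of 106 and 38 of 45 in WT samples, so this intron did not separate the groups. The first introns of NCOA4 end at the same base, 46016695, and begin at 46023329 or at 46030525. The nearer start had 0 and 3 junctions in K700E samples and 33 and 15 in WT samples, and the farther one had 2 and 6 in K700E samples and 5 and 18 in WT samples. These first introns were singled out after their values were seen, and no test was run on them.

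The iron regulatory proteins, encoded by IREB2 and ACO1, bind ferritin and receptor messages when iron is scarce. IREB2 was spliced in 76.8% and 76.9% of overlaps in K700E samples, against 91.6% and 75.1% in WT samples. ACO1 was spliced in 78.4% and 88.5% in K700E samples, against 95.1% and 73.5% in WT samples. Both genes overlapped between genotypes, with WT replicate 1 the highest and WT replicate 2 the lowest of the 4 samples. The most read intron of IREB2, intron 12, was spliced in 7 of 9 and 12 of 13 reads in K700E samples, and in 48 of 49 and 16 of 21 in WT samples. The most read intron of ACO1, intron 2, was spliced in 3 of 3 and 4 of 4 reads in K700E samples, and in 3 of 4 and 3 of 4 in WT samples.

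Haem synthesis was covered by 8 members, of which ALAS2, UROD, CPOX and PPOX were tested. Summed over all annotated introns, 2 had a lower and 2 a higher mean efficiency in K700E samples. ALAS2, the erythroid enzyme of the first step of haem synthesis, was spliced in 55.8% and 42.9% of overlaps in K700E samples, against 44.3% and 44.0% in WT samples. Over its most used introns the mean was slightly lower in K700E samples, at 74.1% and 69.0%, against 70.0% and 76.1% in WT samples. The groups overlapped for both measures. Its most read intron, intron 2 (chrX:55024841-55025819, 979 nt), was spliced in 5 of 5 and 20 of 20 reads in K700E samples, and in 49 of 51 and 138 of 146 in WT samples. Every K700E read carried this junction, and so did nearly every WT read. The junction that skips the 196 nt exon before intron 2 had 0 and 0 reads in K700E samples and 2 and 8 in WT samples. Such reads count as unspliced for intron 2, so the values do not show that any WT read kept it. Exon choice in ALAS2 was read from junctions, chosen after the values were seen and given without a test. For the 111 nt exon at chrX:55023757-55023867, the skipping junction had 1 and 1 reads in K700E samples and 15 and 27 in WT samples. The junction that joins this exon to the next had 1 and 5 reads in K700E samples and 5 and 18 in WT samples. The 107 nt exon at chrX:55027751-55027857 was mostly skipped in all 4 samples, by 3 and 19 reads in K700E samples and 35 and 118 in WT samples.

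UROD, which decarboxylates uroporphyrinogen, was spliced in 4.00% and 24.4% of overlaps in K700E samples, against 25.0% and 29.2% in WT samples. Both K700E samples were lower, replicate 2 by less than 1 point from WT replicate 1. Over its most used introns the groups overlapped, at 5.56% and 34.7% in K700E samples, against 33.3% and 43.3% in WT samples. Its most read intron, intron 3, of 76 nt, was spliced in 0 of 2 and 2 of 11 reads in K700E samples, and in 5 of 16 and 4 of 14 in WT samples. CPOX, the coproporphyrinogen oxidase, was spliced in 38.1% and 61.8% in K700E samples, against 55.3% and 67.2% in WT samples. Intron 6 of CPOX was spliced in 1 of 2 and 8 of 10 reads in K700E samples, and in 32 of 35 and 18 of 18 in WT samples. The groups overlapped for the gene as a whole and not for this shallow intron.

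PPOX, the next enzyme of the pathway and a known target of aberrant splicing in SF3B1-mutant cells, had 14 and 32 overlaps in K700E samples and 27 and 55 in WT samples. It had 4 and 0 junctions in K700E samples and 3 and 1 in WT samples, too few to describe its splicing. Its most read intron, intron 10, of 100 nt, had no junction in 0 and 3 reads in K700E samples and in 3 and 4 reads in WT samples. ALAS1, the housekeeping counterpart of ALAS2, had 3 and 73 overlaps in K700E samples and 69 and 147 in WT samples. FECH, which inserts iron into the ring, had 8 and 4 in K700E samples and 49 and 21 in WT samples. UROS, the uroporphyrinogen synthase, had 11 and 8 in K700E samples and 0 and 60 in WT samples. ALAD, the enzyme of the second step, had 0 and 0 in K700E samples and 16 and 28 in WT samples. These 4 were not tested.

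Among the globins, HBG1 and HBG2, the fetal γ chains, differ at 2 of 441 coding bases (99.5% identity) and were the only globin unit tested. Intron 1 was spliced in 10 of 12 and 73 of 84 reads in K700E samples, and in 40 of 46 and 109 of 141 in WT samples, or 83.3% and 86.9% in K700E samples, against 87.0% and 77.3% in WT samples. Over both introns as most used, 88.2% and 90.9% of overlaps were spliced in K700E samples, against 91.1% and 80.9% in WT samples, and the groups overlapped. An alternative first intron of 160 nt with the same 3′ end was used by no read, of 10 and 83 in K700E samples and 39 and 138 in WT samples. HBE1, the embryonic ε chain, had 2 and 10 overlaps in K700E samples and 17 and 23 in WT samples. HBA1 and HBA2, the α chains, are identical over their 426 coding bases and had 9 and 9 overlaps in K700E samples and 1 and 6 in WT samples. HBZ, the embryonic ζ chain, had 2 and 3 in K700E samples and 0 and 0 in WT samples.

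Haem breakdown and iron-sulphur cluster assembly were thinly covered. BLVRA, a biliverdin reductase, was spliced in 51.6% and 51.5% of overlaps in K700E samples, against 54.5% and 42.3% in WT samples, and the groups overlapped. Its most read annotated intron, of 1282 nt, had 1 junction in 4 reads and 1 in 14 in K700E samples, and 0 in 1 and 2 in 21 in WT samples. ISCU, the scaffold of iron-sulphur clusters, was spliced in 30.8% and 29.4% in K700E samples, against 15.3% and 34.6% in WT samples. A 123 nt intron of ISCU (chr12:108564156-108564278) was spliced in 0 of 3 and 1 of 5 reads in K700E samples, and in 1 of 38 and 0 of 9 in WT samples. It was thus left in nearly every read of both genotypes. HMOX2, a haem oxygenase, had 2 and 5 overlaps in K700E samples and 21 and 23 in WT samples, and 11 of its 20 introns with a read overlap exons of NMRAL1. BLVRB, the second biliverdin reductase, had 9 and 2 in K700E samples and 6 and 33 in WT samples. GLRX5, a glutaredoxin of cluster assembly, had 2 and 2 in K700E samples and 0 and 0 in WT samples.

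Of the red cell membrane genes, SPTB, ANK1 and GYPB had a higher and EPB41 a lower mean efficiency in K700E samples, summed over all annotated introns. SPTB, which encodes the β spectrin of the membrane skeleton, was spliced in 16 of 19 and 37 of 42 overlaps in K700E samples, and in 65 of 103 and 83 of 115 in WT samples. That is 84.2% and 88.1% in K700E samples, against 63.1% and 72.2% in WT samples. Both K700E samples were higher, with an unadjusted p of 0.0515 and an adjusted p of 0.99975 in edgeR. Its most read intron, intron 4, was spliced in 1 of 1 and 6 of 6 reads in K700E samples, and in 6 of 7 and 10 of 12 in WT samples. ANK1, the ankyrin that ties spectrin to the membrane, was spliced in 79.3% and 68.8% in K700E samples, against 74.1% and 63.0% in WT samples, with overlap. Its most read annotated intron, of 8214 nt, was used by no read, of 5 and 34 in K700E samples and 9 and 36 in WT samples.

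EPB41 encodes protein 4.1, which joins spectrin to actin, and lies on the plus strand of chromosome 1. Intron 8, of 2605 nt (chr1:29030488-29033092), was spliced in 12 of 14 and 18 of 22 reads in K700E samples, and in 67 of 68 and 44 of 48 in WT samples. That is 85.7% and 81.8% in K700E samples, against 98.5% and 91.7% in WT samples, and both K700E samples were lower. Its unadjusted p was 0.163 and its adjusted p 0.985 in edgeR. Introns 7 and 10 also lay lower in both K700E samples, with mean differences of −3.68 and −6.29 points, and intron 9 overlapped. The 126 nt exon inside intron 8 (chr1:29031788-29031913) was joined on either side by 0 and 1 reads in K700E samples and by 0 and 1 in WT samples, so it was skipped in nearly all spliced reads of both genotypes. The 278 nt exon inside intron 9 had no joining read in either K700E sample, and in WT samples at most 3 on 1 side, in WT replicate 1. Summed, EPB41 reached 36.7% and 32.4% in K700E samples, against 44.4% and 38.6% in WT samples. Over its most used introns it reached 76.6% and 82.7% in K700E samples, against 93.8% and 89.3% in WT samples, and both sums were lower in both K700E samples.

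GYPB, a glycophorin of the red cell surface, was spliced in 4.17% and 13.9% of overlaps in K700E samples, against 2.22% and 12.3% in WT samples, with overlap. Over its most used introns the mean was lower in K700E samples. There 0 of 5 and 5 of 8 overlaps were spliced in K700E samples, and 2 of 24 and 13 of 19 in WT samples. Its most read annotated intron, of 709 nt, had no junction in any of 2 and 4 reads in K700E samples and 8 and 10 in WT samples. GYPC, another glycophorin, had a single overlap, in WT replicate 2.

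**Figure D3:**
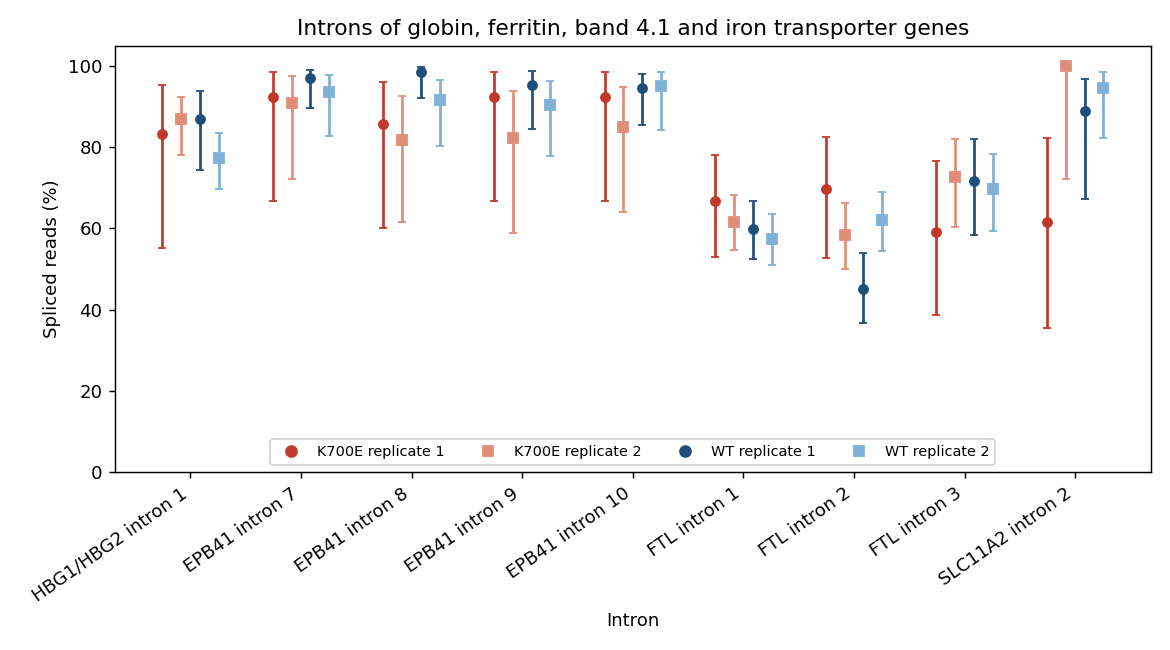
Share of spliced reads in percent, with 95% Wilson intervals, for introns of members other than TFRC that met the minimum of 10 reads in every sample, with alternatives of overlapping introns left out, K700E samples left of WT samples. FTL intron 1 has both K700E samples above both WT samples, at 66.7% and 61.7% in K700E samples, against 59.8% and 57.3% in WT samples. EPB41 intron 8 has both below, at 85.7% and 81.8% in K700E samples, against 98.5% and 91.7% in WT samples.

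Short introns were the less spliced ones in the members as in all genes. Over the most used member introns, those under 250 nt were spliced in 48.9% and 58.8% of overlaps in K700E samples, against 64.3% and 63.9% in WT samples. Those from 250 to under 1000 nt were spliced in 70.1% and 75.1% in K700E samples, against 82.2% and 80.1% in WT samples. Those of 1000 nt or more were spliced in 82.6% and 88.1% in K700E samples, against 94.4% and 89.6% in WT samples. Efficiency was higher in each longer class in all 4 samples, and both K700E samples were lower in every class. Without TFRC, both K700E samples remained lower only in the middle class, at 66.8% and 71.0%, against 79.1% and 76.8% in WT samples. Over all genes, introns under 250 nt were spliced in 46.2% and 56.1% of overlaps in K700E samples, against 58.2% and 56.9% in WT samples. The middle class over all genes stood at 56.9% and 64.6% in K700E samples, against 68.0% and 65.2% in WT samples. Both K700E samples were thus lower in both of these classes over all genes as well. Introns of 1000 nt or more overlapped over all genes, with a mean difference of −6.97 points, against −6.62 points over the members. Member introns that end a transcript were spliced in 66.7% and 75.6% in K700E samples, against 87.3% and 81.1% in WT samples, a mean difference of −13.1 points. Over all genes such introns were also lower in both K700E samples, at 29.5% and 35.2%, against 50.9% and 36.7% in WT samples, a mean difference of −11.5 points. First introns of members stood at 71.3% and 72.1% in K700E samples, against 70.4% and 74.7% in WT samples, and did not separate the groups. Without TFRC they were lower in both K700E samples, at 62.9% and 65.8%, against 67.3% and 68.8% in WT samples. First introns of all genes overlapped, with a mean difference of 1.22 points.

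Nascent reads over most of the tested members were lower in K700E samples, although none passed the test. Levels are given as CPM, read-intron overlaps scaled to library totals and TMM factors, and depend on intron number, so they are compared within a gene only. Fewer cells making these transcripts and less RNA per cell cannot be told apart in such bulk samples. Of 20 tested units 17 had a lower and 3 a higher level in K700E samples, with a median log2 difference of −0.65 against −0.00056 over all 5116 genes tested. In edgeR's quasi-likelihood test 0 of the 20 passed and 2 had an unadjusted p under 0.05, and 0.0782% of all genes passed. DESeq2 called 0 of the 18 members it tested, and 11 of 4421 genes over the whole table. Both K700E samples lay below both WT samples for 9 units and above both for 1, where 17.3% of all genes lay below and 18.3% above. Without the shallow K700E replicate 1, 15 of the 20 were lower, beside 53.0% of all genes. Without WT replicate 2, 12 were lower, beside 47.0% of all genes. Scaled by library totals, which moved the median of all genes to 0.22, 15 were lower, beside 37.5% of all genes. FTL and PPOX changed sign with that scaling. All members together took 0.432% and 0.560% of all overlaps in K700E samples, against 0.642% and 0.887% in WT samples. The erythroid marker sums given above are raw counts, not scaled for depth, and come mostly from members, TFRC above all. They restate the member counts and say nothing separate on level. The part of cell state or depth in the levels was not tested.

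ALAS2 and NCOA4 had the smallest p-values of the set for level. ALAS2 had 92.8 and 185 CPM in K700E samples, against 402 and 1061 in WT samples. Both K700E samples were lower, at a mean of 139 ± 65.4 for K700E and 732 ± 466 for WT (SD, n = 2 each). The fitted log2 difference was −2.39 ± 0.62 (SE), with an adjusted p of 0.206 in edgeR's quasi-likelihood test. Without WT replicate 1 its adjusted p was 0.00183, and over all the alternatives run it ranged from 0.00183 to 0.99997. With 1 sample left out the log2 difference ran from −2.98, without K700E replicate 2, to −1.54, without WT replicate 2.

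NCOA4 had 36.7 and 228 CPM in K700E samples, against 791 and 465 in WT samples. Both K700E samples were lower, replicate 1 by far the lowest. The fitted log2 difference was −2.22 ± 0.65 (SE), with an adjusted p of 0.386 in edgeR. Without WT replicate 2 the adjusted p was 0.0110, and it ranged from 0.0110 to 0.99997 over all the alternatives run. With 1 sample left out the log2 difference ran from −4.09, without K700E replicate 2, to −1.46, without K700E replicate 1.

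TFRC had 1576 and 1950 CPM in K700E samples, against 2522 and 3387 in WT samples, a log2 difference of −0.74 ± 0.51 (SE) with an adjusted p of 0.811 in edgeR. SLC11A2 had 522 and 457 in K700E samples, against 733 and 1159 in WT samples. EPB41 had 518 and 618 in K700E samples, against 995 and 837 in WT samples. All 3 were lower in both K700E samples. SPTB had 41.0 and 47.7 in K700E samples, against 92.2 and 109 in WT samples, and GYPB had 51.8 and 40.9 in K700E samples, against 80.6 and 100.5 in WT samples. SLC25A37 had 86.3 and 101 in K700E samples, against 172 and 111 in WT samples, and UROD had 54.0 and 139.8 in K700E samples, against 143 and 159 in WT samples. These 4 were lower in both K700E samples as well, UROD by a narrow margin, and their adjusted p-values in edgeR lay between 0.806 and 0.916.

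The remaining units overlapped or were higher. FTH1 alone was higher in both K700E samples, at 75.5 and 109 CPM, against 72.5 and 74.9 in WT samples. CPOX had 45.3 and 62.5 in K700E samples, against 184 and 55.0 in WT samples. ISCU had 28.1 and 19.3 in K700E samples, against 76.1 and 24.7 in WT samples. In both, WT replicate 1 alone was high. IREB2 had 205 and 226 in K700E samples, against 439 and 209.6 in WT samples, and ACO1 had 79.9 and 69.3 in K700E samples, against 72.5 and 46.5 in WT samples. FTL had 229 and 446 in K700E samples, against 319 and 456 in WT samples, and HBG1/HBG2 had 58.3 and 269 in K700E samples, against 106 and 324 in WT samples. In FTL and HBG1/HBG2 replicate 1 was the lower one in both genotypes. ANK1 showed the same order, with 177 and 469 in K700E samples, against 287 and 664 in WT samples. SLC40A1 had 54.0 and 54.6 in K700E samples, against 50.1 and 122 in WT samples, and PPOX had 30.2 and 36.4 in K700E samples, against 24.2 and 52.2 in WT samples. BLVRA had 66.9 and 115 in K700E samples, against 9.85 and 117 in WT samples, so that WT replicate 1 alone was low.

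**Figure D4:**
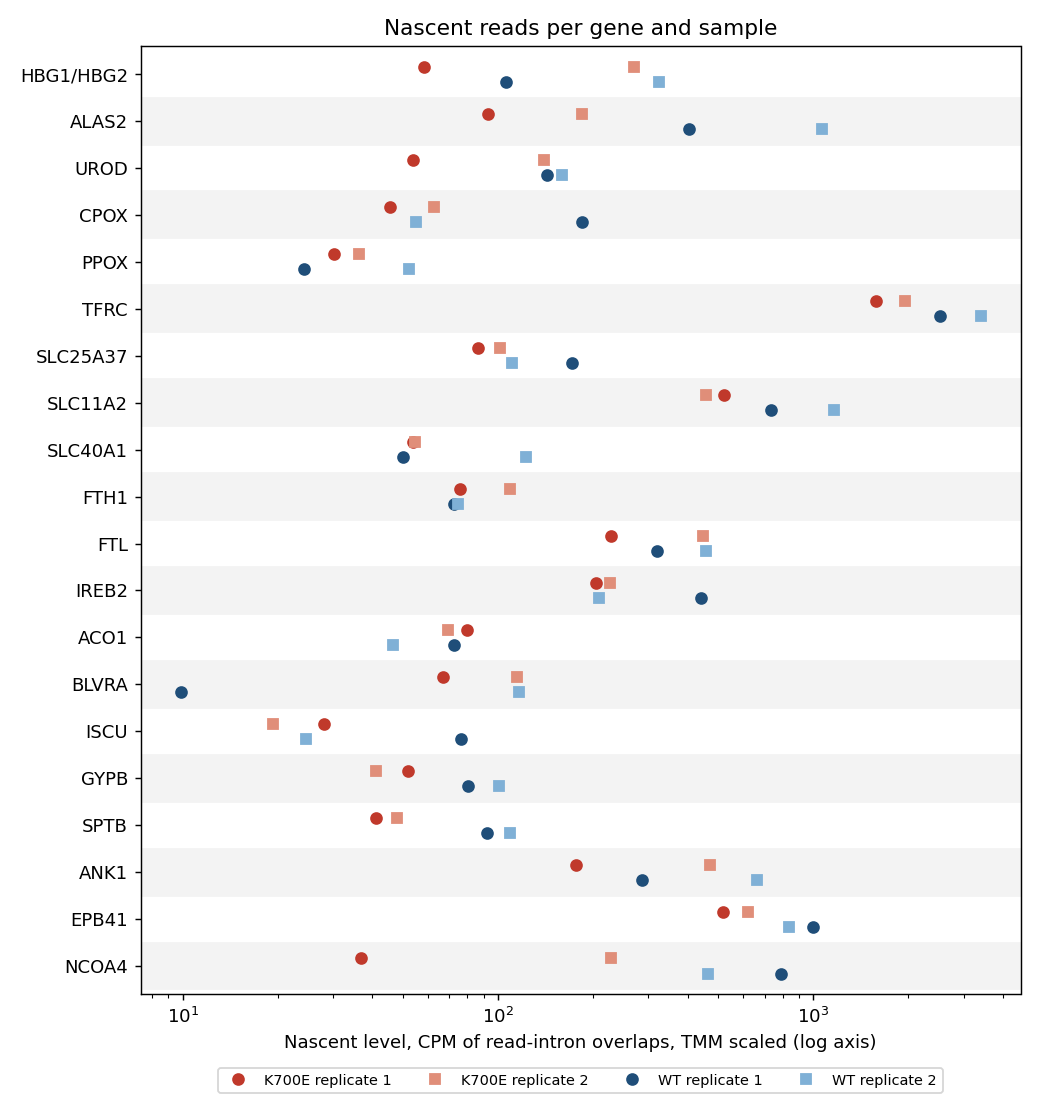
Nascent level in CPM, TMM scaled, on a log axis for the 20 tested units, with 1 point per sample, K700E in the upper and WT in the lower row of each unit. ALAS2 has 92.8 and 185 in K700E samples, against 402 and 1061 in WT samples, and FTH1 is the only unit with both K700E samples above both WT samples.

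Other genes of the same pathways were read from a list of 72, chosen by function with results of these data known. Of these, 63 had a read and 25 were tested. For efficiency, edgeR's quasi-likelihood test called 0, with 0 at an unadjusted p under 0.05. Of the 25, 19 were lower and 6 higher, with a median difference of −7.48 points, where 62.4% of all genes were lower and the median was −2.55 points. Both K700E samples lay below both WT samples for 5 of the 25 and above both for 1, beside the 21.1% and 10.3% of all genes given above. STOM, a membrane protein of red cells, had the smallest p of the list. It was spliced in 12 of 17 and 10 of 14 overlaps in K700E samples, and in 10 of 10 and 41 of 44 in WT samples. That is 70.6% and 71.4% in K700E samples, against 100% and 93.2% in WT samples, the 100% at the read minimum. FBXL5, the iron sensor that marks iron regulatory protein 2 for breakdown, was spliced in 63.5% and 73.3% in K700E samples, against 87.5% and 79.7% in WT samples. HSPA9, the mitochondrial chaperone of cluster transfer, was spliced in 45.8% and 51.4% in K700E samples, against 70.3% and 58.4% in WT samples. All 3 were lower in both K700E samples.

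ABCB10, a mitochondrial transporter of the haem pathway, was low in K700E replicate 1 alone, at 29.6% and 90.0% in K700E samples, against 89.2% and 83.6% in WT samples. For level, edgeR's quasi-likelihood test called 0 genes of the list and 1 had an unadjusted p under 0.05, with 16 lower and 9 higher in K700E samples and a median log2 difference of −0.16.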

How the data were processed

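Nascent chromatin RNA of 4 K562 samples was analysed. For each sample and annotated intron, the authors deposited 2 raw counts, those of reads that cover the intron and of reads that carry its junction. The authors' ratio of these counts (CoSE) is deposited beside them and was not used in tests. Cutadapt, minimap2 and hg38 appear in the submitters' processing notes. Tool versions, their settings and the way reads were assigned to introns and strands were not given in the sources used here. Tables of RNA 3′ end positions carry no gene names and were not used. In-file names of the K700E tables are numbered otherwise than the sample titles, and samples follow the series records.

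Rows were placed on GENCODE 29 (GRCh38) through their transcript, strand, start and intron number, and 87.35 to 87.63% of rows found a place. Each distinct intron was counted once, with the highest count among transcripts, and ratios above 1 were set to 1. An intron without a row counts as 0 reads. A read that covers an intron but is spliced at other sites, annotated or not, counts as unspliced for it. For intron efficiency, edgeR 4.0.16 (R 4.3.3) was run as a quasi-likelihood test with dispersion 0 and spliced and unspliced counts paired within sample, where every sample had at least 10 reads. Gene efficiency and level used sums over introns and an estimated dispersion, with TMM for level. All p-values were adjusted by Benjamini-Hochberg over the whole table. The scripts were tested on simulated data. With dispersion 0 the intron p-values rest on a spread pooled over introns. With 2 samples against 2, an exact permutation test cannot go below 0.333 and was not used.

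The samples held 459726 to 1346809 overlaps, and 3 reads, taken as the floor of a count of 0, are 0.000223 to 0.000653% of them. Wilson intervals and floors cover counting error only, since PCR copies of a molecule cannot be told apart. Alternatives were DESeq2 1.42.0, limma 3.58.1 (on log2 odds with 0.5 added), other dispersions, minimum reads, scalings and handling of overlapping introns, a replicate block and each sample left out. The members, the wider list and the tests were chosen with earlier results of these data known. Named were all members, the tested units and their most read introns, the 12 introns and 6 genes with the smallest p, introns with separate groups at least 10 points apart, and the 6 genes of the wider list with the smallest p, of which 2 are not reported here.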

Additional observations from a re-analysis of the deposited data

How the results depend on the processing

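No member intron or gene passed for efficiency under any alternative run. For level, 1 member passed without WT replicate 1 (ALAS2, log2 −2.92) and 1 without WT replicate 2 (NCOA4, log2 −2.56), and 0 under the other alternatives, so that the count of members ranged from 0 to 1 over single samples left out. Over the member introns, genes and levels with the smallest p, 263 values kept their direction and side of the threshold and 2 changed sign: SLC11A2 intron 2, which ran from −30.2 to 8.26 points with 1 sample left out and was at 8.26 without K700E replicate 1, and IREB2, which ran from −14.8 to 1.75 points and was at 1.75 without WT replicate 1. Over all introns, 5 passed with dispersion 0, against 2 with an estimated dispersion, 0 with DESeq2, 0 with limma and 0 to 12 with 1 sample left out. Over all genes, efficiency gave 0, against 1 with DESeq2, 1 with the most used introns and 0 whichever sample was left out. For level 4 passed, against 1 with library totals, 11 with DESeq2, 30 with no filter, 0 with at least 20 reads, 0 with the most covered intron per gene and 0 to 56 with 1 sample left out. The causes of these moves were not tested.

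Deviations of same-numbered samples correlated at −0.0737 for level and −0.0651 for efficiency over 5116 genes. With 1 deviation per gene and genotype, and with the K700E numbering uncertain, these values cannot settle whether samples were paired. With the replicate number as a block, 3 introns, 0 genes and 4 levels passed over the whole tables, and 0 members in each. At this depth 15 member units with reads were untested, and K700E replicate 1 held 7719 introns with 10 reads, where the other samples held 25163 to 34509.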
